A study of Mus musculus with 22 samples.

Results

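GABA15 is the name of a neuron type in the authors' annotation of the hypothalamic nuclei, and its members were all nuclei that carry this cell type label. There were 153 of them among 24965 nuclei (0.613%), from 10 male ob/ob mice of 11 weeks, each mouse being 1 hypothalamus and 1 library. All mice carried the leptin-deficient ob/ob genotype and had 1 intracerebroventricular (icv) injection, so no lean or uninjected mouse enters any comparison. The FGF1 mice received 3 µg of fibroblast growth factor 1, and the vehicle mice received vehicle and were pair-fed to the intake of the FGF1 mice. Nuclei were taken 24 h after the injection from 3 FGF1 and 3 vehicle mice (Day 1) and on Day 5 from 2 FGF1 and 2 vehicle mice. Mice are named by the numbers of their labels, which are 1 to 3 in each group on Day 1, 37 and 45 for FGF1 on Day 5 and 28 and 38 for vehicle on Day 5. Single-nucleus RNA-seq counted unique molecular identifiers (UMIs), each of which stands for 1 captured transcript, and levels are given here as CPM, the UMIs of a gene per 1000000 UMIs of the label's nuclei in that mouse.

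Agrp neurons of the arcuate nucleus release agouti-related peptide, which blocks melanocortin receptors, together with neuropeptide Y and the inhibitory transmitter GABA. They drive feeding, are held back by leptin and insulin, and are a main target of work on how the brain controls body weight and blood glucose. In ob/ob mice, where leptin is missing, these neurons are known to be highly active.

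The label GABA15 was not drawn by a gate on Agrp or Npy. The authors first compared each neuron with a published set of arcuate neuron types and kept the match where its confidence passed 75%, and the rest were compared with a second published set, from which the name GABA15 comes. The first match of 123 of the 153 nuclei was n13.Agrp/Gm8773, the type that is called Agrp neurons here, 9 were first matched to n12.Agrp/Sst and 21 to 9 other types. The mix differed between mice. In Day 5 FGF1 mouse 45 only 23 of 38 nuclei were first matched to n13.Agrp/Gm8773. The next lowest part was 16 of 21, in Day 1 vehicle mouse 2. The confidence of the 153 nuclei in the first match ran from 0.166 to 0.749 with a median of 0.603, whereas the 341 nuclei that kept the Agrp neuron label ran from 0.751 to 0.975 with a median of 0.912. On Day 1 the GABA15 median was 0.655, 0.506 and 0.477 in FGF1 mice 1, 2 and 3. In vehicle mice 1, 2 and 3 it was 0.661, 0.661 and 0.681, without overlap. The part of this difference in the Day 1 FGF1 comparisons was not tested. Of all 524 nuclei whose first match was n13.Agrp/Gm8773, 341 thus became Agrp neurons, 123 became GABA15 and 60 neither. The 2 labels thus hold, for the most part, the high and the low end of 1 confidence scale, and whether they are separate cell types cannot be told from the annotation alone.

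The defining peptides were present in nearly every GABA15 nucleus. At least 1 Agrp UMI was found in 99.3% of the GABA15 nuclei and at least 10 in 85.0%, against 21.2% and 0.601% of the 11986 unmapped neurons, which have no published match and serve as the background. Slc32a1, Gad1 and Gad2, the genes of GABA synthesis and packaging, summed to 250.0 to 558 CPM in the 10 mice (median 351), beside a median of 305 CPM both in Agrp neurons and in unmapped neurons. Markers of other cells were not absent. The 18 markers of other peptidergic or aminergic neurons summed to 294 to 2495 CPM (median 664), beside a median of 534 CPM in Agrp neurons and 670 in unmapped neurons, with Crh alone at 0. The 3 glutamatergic markers summed to 0 to 91.0 CPM with Slc17a7 at 0, the 4 tanycyte markers to 0 to 206 CPM with Rax at 0, the 3 endothelial markers to 10.3 to 140 CPM with Cldn5 at 0, and the 5 oligodendrocyte markers to 23.3 to 323 CPM. After each nucleus was thinned to 1500 UMIs, 11.2% of GABA15 nuclei held 2 or more astrocyte marker UMIs, compared with 2.53% of Agrp neurons and 2.30% of unmapped neurons. The summed level of the 5 astrocyte markers was 116 to 365 CPM in FGF1 mice and 73.1 to 764 CPM in vehicle mice, so both groups held them.

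Each mouse gave few GABA15 nuclei. On Day 1 the FGF1 mice 1, 2 and 3 gave 26, 11 and 5 nuclei, and the vehicle mice 1, 2 and 3 gave 12, 21 and 8. On Day 5 the FGF1 mice 37 and 45 gave 6 and 38, and the vehicle mice 28 and 38 gave 18 and 8. The same mice gave 12 to 96 nuclei labelled Agrp neurons and 591 to 5768 nuclei in all. In no GABA15 nucleus did mitochondrial or ribosomal UMIs exceed 5%, 318 barcode sequences occurred in 2 or more mice, and only 4 GABA15 nuclei carried one of these, none with a partner labelled GABA15 or Agrp neurons.

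GABA15 nuclei held more UMIs per nucleus than Agrp neurons in every mouse. The median was 4184 UMIs over all GABA15 nuclei and 2352 over all Agrp neurons. Within mice the GABA15 median was 1.27 to 2.22 times that of Agrp neurons (log2 ratio 0.76 ± 0.29, SD, n = 10), higher in 10 of 10 mice. Against unmapped neurons of the same mice the log2 ratio was 0.66 ± 0.30 for GABA15 and -0.10 ± 0.16 for Agrp neurons. These ratios are given as a description without a test, because depth went along with the confidence that split the labels. Among nuclei whose first match was n13.Agrp/Gm8773, the Spearman correlation of UMIs with confidence was negative in all 10 mice, from -0.76 to -0.20 over 18 to 124 nuclei of 1 library each. At an equal depth of 1500 UMIs the difference in genes per nucleus was small, with a median of 1032 genes in GABA15 and 1021.5 in Agrp neurons.

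The ratio was higher in the FGF1 mice of Day 1. It was 1.92 to 2.22 in these 3 mice and 1.27 to 1.52 in the 3 vehicle mice, without overlap, and 1.44 to 1.95 against 1.59 to 1.93 on Day 5. Over both days the difference between FGF1 and vehicle did not pass the exact permutation test within days (0.27 on the log2 scale, p = 0.15), a test chosen after the values had been seen. UMIs per GABA15 nucleus themselves differed by -0.10 on the log2 scale between FGF1 and vehicle (exact permutation p = 0.717).

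**Figure D1:**
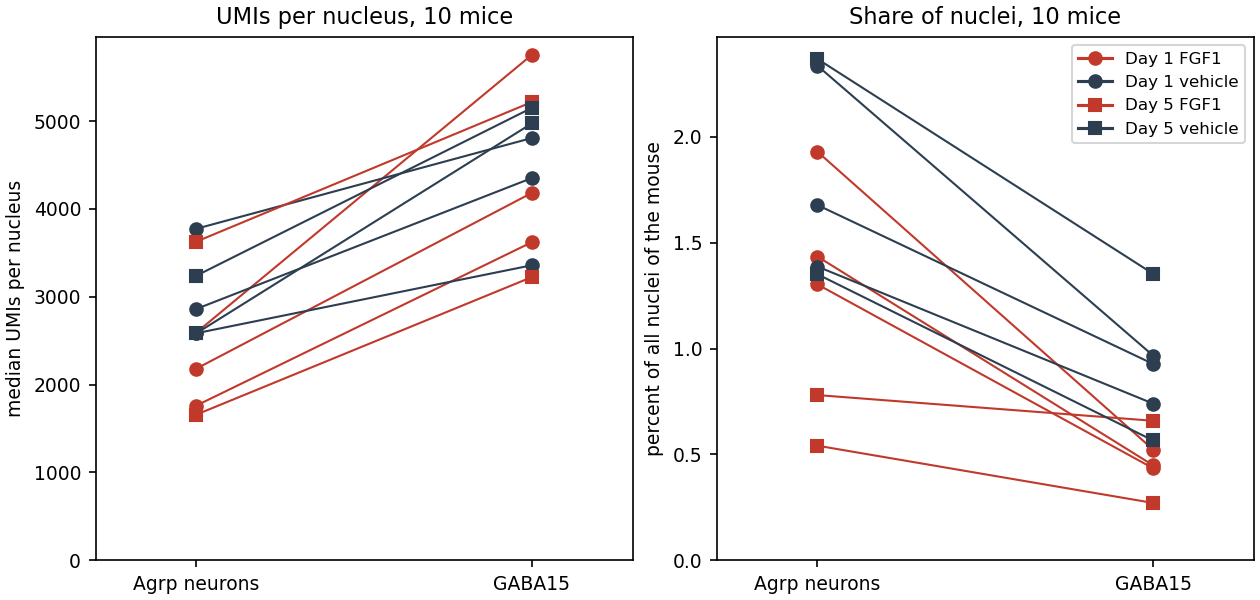
Median UMIs per nucleus (left axis from 0) and percent of all nuclei of the mouse (right) for nuclei labelled Agrp neurons and GABA15, with a line for each of the 10 mice, red for FGF1 and dark for vehicle, circles for Day 1 and squares for Day 5. All 10 lines on the left rise towards GABA15, by 1.27 to 2.22 times.

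GABA15 nuclei made up a smaller share of all nuclei after FGF1. On Day 1 the share was 0.523%, 0.434% and 0.448% in FGF1 mice 1, 2 and 3 and 0.967%, 0.928% and 0.740% in vehicle mice 1, 2 and 3. On Day 5 it was 0.271% and 0.659% in FGF1 mice 37 and 45 and 0.566% and 1.35% in vehicle mice 28 and 38. The Day 1 groups did not overlap and the Day 5 groups did. Over all mice the share was 0.467% ± 0.141 (SD, n = 5) after FGF1 and 0.911% ± 0.295 (n = 5) after vehicle, and the mean within-day difference was -0.452 percentage points (exact two-sided permutation test within days, p = 0.0333, smallest possible 0.0167). Within the 5 batches of the metadata, each of 1 FGF1 and 1 vehicle mouse of the same day, the difference ran from -0.695 to -0.217 points and was negative in all 5. The test permuted mice within days and not within these batches, where an exact two-sided permutation of 5 pairs cannot pass 0.05. The test rested on single mice: without one of them the exact permutation p was 0.0167 to 0.2 and stayed past 0.05 in 2 of 10 cases, and without Day 5 vehicle mouse 38 the difference shrank to -0.255 points (p = 0.1).

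Several other measures moved with this share. Agrp neurons also had a lower mean share in FGF1 mice, 1.198% ± 0.550 against 1.82% ± 0.499 (SD, n = 5 each), which did not pass the same exact permutation test (-0.722 points, p = 0.1), and GABA15 as a percent of both labels differed by -1.61 points over both days (exact permutation p = 0.783), but the days ran opposite ways. On Day 1 that percent was 21.3, 25.0 and 23.8 in FGF1 mice 1, 2 and 3 and 29.3, 35.6 and 34.8 in vehicle mice 1, 2 and 3, without overlap. On Day 5 it was 33.3 and 45.8 in FGF1 mice 37 and 45 and 29.5 and 36.4 in vehicle mice 28 and 38, with overlap. The depth of other neurons differed too, since unmapped neurons had a median of 1889 to 2683 UMIs in the Day 1 FGF1 mice and 2962 to 3736.5 in the Day 1 vehicle mice, and 4 of 5 FGF1 mice lay below the vehicle mouse of their batch. The part of depth in the share, through the confidence of the match, was not tested. A share of recovered nuclei also cannot tell fewer GABA15 neurons from more nuclei of other types.

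Agrp and Npy were abundant in GABA15 nuclei, but took a smaller part of their RNA than in Agrp neurons. In GABA15, Agrp (GRCm38 chromosome 8, 105566698 to 105637393) stood at 12216, 5295 and 3904 CPM in the Day 1 FGF1 mice 1, 2 and 3 and at 3631, 8809 and 4875 CPM in the vehicle mice. On Day 5 it was 3641 and 3412 CPM in FGF1 mice 37 and 45 and 4993 and 4316 CPM in vehicle mice 28 and 38. FGF1 mouse 1 and vehicle mouse 2 were thus the high libraries on Day 1, the groups overlapped, and on Day 5 both FGF1 mice lay below both vehicle mice, as they did for 16.2% of the genes tested in GABA15. Npy (chromosome 6, 49822710 to 49829507) followed with 11702, 6281 and 4136 CPM after FGF1 and 4265, 9790 and 5257 CPM after vehicle on Day 1, and with 3125 and 3485 against 5923 and 6323 CPM on Day 5.

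Relative to Agrp neurons of the same mouse, Agrp CPM in GABA15 was on average 0.538 times as high (0.395 to 1.03, lower in 9 of 10 mice) and Npy CPM 0.536 times (0.336 to 0.839, lower in 10 of 10). Counted per nucleus, and not as CPM, the gap was smaller. A GABA15 nucleus held on average 0.884 times as many Agrp UMIs and 0.880 times as many Npy UMIs, with 8 and 7 of 10 mice lower. Thinning every nucleus to 1500 UMIs left the log2 ratios of level at -0.76 for Agrp and -0.80 for Npy. Random thinning keeps the expected share of each gene in a nucleus, so it could not show a part of depth in these ratios. These ratios are a description without a test, since the label itself was assigned from the expression of the same nuclei. Over nuclei of all mice, the median was 21 Agrp and 25 Npy UMIs in GABA15 and 30 and 29 in Agrp neurons.

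FGF1 did not change either peptide past the threshold in GABA15. For Agrp the log2 fold change was 0.29 ± 0.42 (SE) on Day 1 and -0.43 ± 0.52 on Day 5 by edgeR's quasi-likelihood test across all genes (Benjamini-Hochberg adjusted p = 0.899 and 1.00). For Npy it was 0.18 ± 0.38 and -0.91 ± 0.47 (adjusted p = 0.942 and 1.00), with the lower Day 5 value at an unadjusted p of 0.0737. In Agrp neurons of the same mice the Day 5 log2 fold changes were -1.02 ± 0.62 for Agrp and -1.42 ± 0.63 for Npy, which did not pass either (adjusted p = 1.00 by edgeR). Both directions on Day 1 turned around without Day 1 FGF1 mouse 1, to -0.416 for Agrp and -0.394 for Npy.

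**Figure D2:**
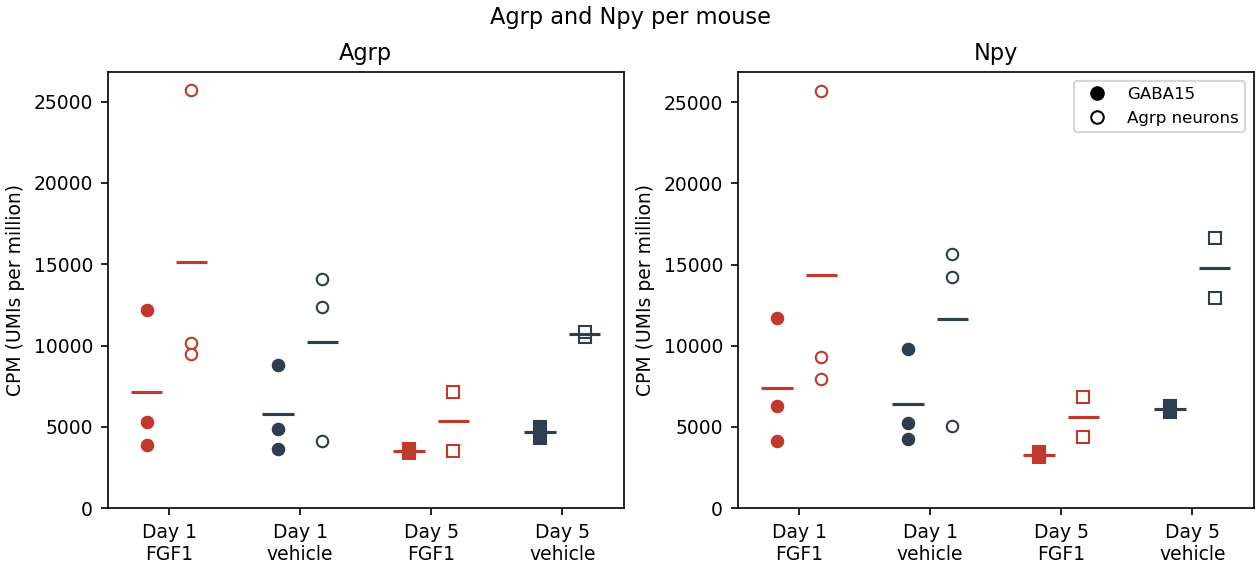
Agrp and Npy in CPM (vertical axis from 0) in each mouse by day and treatment, filled for GABA15 and open for Agrp neurons, with bars at group means of 3 mice on Day 1 and 2 on Day 5. In GABA15 the 2 Day 5 FGF1 mice lie below both vehicle mice, at 3125 and 3485 against 5923 and 6323 CPM for Npy.

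Brinp3, Col25a1 and Tenm1 were among the genes that stood highest in GABA15 relative to Agrp neurons. Of 2275 genes at 100 CPM or more in either label, 42 (1.85%) were higher in GABA15 in all 10 mice and 20 (0.879%) were lower in all 10. Brinp3 led with 385 to 949 CPM in GABA15 and 0 to 808 in Agrp neurons (mean log2 ratio 1.52 ± 1.34, SD). Col25a1, a transmembrane collagen, stood at 155 to 676 CPM against 25.4 to 177 (1.51 ± 0.61), and Tenm1, a teneurin that links neurons across the synapse, at 246 to 668 against 50.9 to 384 (1.22 ± 0.91). Egfem1 (1.42), the phosphodiesterase gene Pde4b (1.198), Plcb1, a phospholipase of Gq-coupled receptors (1.18), the NMDA receptor subunit gene Grin3a (1.17), Fam19a1 (1.15), the protocadherin gene Pcdh11x (1.11) and Il1rapl1, a synaptic adhesion gene (1.10), completed the 10 highest ratios among the 42 genes.

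The genes that stood lowest in GABA15 included a neighbour of Agrp, a protease and a hormone receptor gene. Gm38250, which overlaps Agrp on the opposite strand, had a log2 ratio of -1.07. The sources used here do not state the use of strand in counting, and reads of the pair were not examined. The Agrp entry also overlaps Gm45855 and Gm5914 on its own strand. Corin, a serine protease known from agouti signalling in hair follicles, lay at 54.8 to 155 CPM in GABA15 and 155 to 411 in Agrp neurons (-1.02 ± 0.60). Ghr, the growth hormone receptor gene, lay at 1064 to 3583 against 1792 to 5209 CPM (-0.74 ± 0.23), lower in GABA15 in each of the 10 mice. Next to Npy (-0.90), the others of the 10 lowest among the 20 genes lower in all 10 mice were 4931406P16Rik (-1.001), Prune2 (-0.85), Ptprk (-0.79), Myef2 (-0.75), Senp6 (-0.65) and Dock10 (-0.62).

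**Figure D3:**
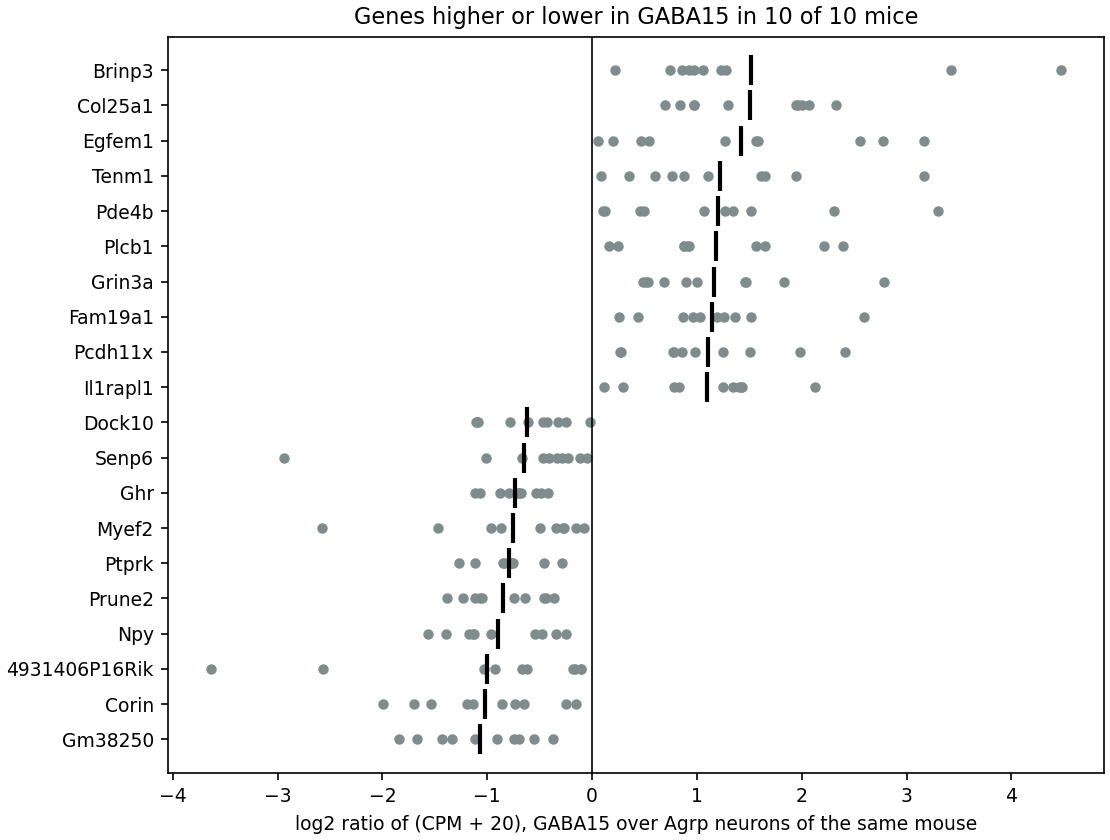
Log2 ratio of CPM plus 20, GABA15 over Agrp neurons of the same mouse (horizontal axis), for the 10 genes with the highest and the 10 with the lowest mean ratio among those higher or lower in 10 of 10 mice. Grey points are mice and black ticks their means, which run from 1.52 for Brinp3 to -1.07 for Gm38250.

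Synaptic adhesion and guidance genes tended to have higher levels in GABA15 than in Agrp neurons. Of the 48 members 44 reached 50 CPM, with a median log2 ratio of 0.52 beside -0.05 for all 4547 genes at that level, and 8 of them (among them Nrxn3, Nlgn1, Lrrtm4, Il1rapl1, Ptprd, Tenm1 and Epha6) were higher in all 10 mice, a pattern that 1.06% of all genes showed. Nlgn1, a postsynaptic partner of neurexins, had a level of 2462 ± 561 CPM against 1390 ± 643 (SD, n = 10), and Ptprd, a presynaptic receptor phosphatase, 2762 ± 669 against 1597 ± 554. Ionotropic glutamate and GABA receptor genes had a median ratio of 0.20 over 24 members, with Grin2b, Grin3a and Grik1 higher in all 10 mice. Potassium channel genes had a median of 0.29 over 21 members, with Kcnn2 higher in all 10. Granins and prohormone processing enzymes, which pack and cut peptides, stayed near Agrp neurons (median -0.15 over 12 members, none higher or lower in all 10 mice). Hormone and peptide receptors had a median of -0.08 over 12 members. Within this group Igf1r was higher in all 10 mice (97.4 ± 47.3 against 34.4 ± 30.6 CPM), Ghr was lower in all 10, and the leptin receptor gene Lepr was at 285 ± 87 against 508 ± 238 CPM, lower in 9 of 10.

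The pan-neuronal markers moved the same way as the adhesion genes. Their summed level had a median of 3763 CPM in GABA15, 2514 in Agrp neurons and 4750 in unmapped neurons. The part of RNA from other neurons, of gene length and of reads from introns in the ratios was not tested.

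The FGF1 comparison in GABA15 called no gene. On Day 1, 1637 genes had enough UMIs to be tested in counts summed per mouse, and 0 (0%) passed an adjusted p of 0.05 in edgeR's quasi-likelihood test or in DESeq2, while 134 (8.19%) had an unadjusted p below 0.05 in edgeR, 73 higher (4.46%) and 61 lower (3.73%), and 70 in DESeq2. On Day 5 the count was also 0 (0%) with both tools, with 37 genes (2.26%) below an unadjusted 0.05 in edgeR and 14 in DESeq2. For the mean of both days the counts were 0 (0%), 96 (5.86%) and 48, and for the difference between the days 0 (0%), 54 (3.30%) and 23. GABA15 libraries held 25872 to 136008 UMIs per mouse. The Day 1 count of 0 became 5 without Day 1 FGF1 mouse 1, 2 without Day 5 vehicle mouse 38 and 1 without Day 1 vehicle mouse 2 or Day 5 FGF1 mouse 37.

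Among the Day 1 genes nearest to the threshold, Nkain3, whose product binds the sodium pump, on GRCm38 chromosome 4 (20118874 to 20778866), came first. Its level was 428, 1004 and 1237 CPM in FGF1 mice 1, 2 and 3 and 240, 227 and 176 CPM in vehicle mice 1, 2 and 3. The groups did not overlap (126 of the 1637 genes, 7.7%, did so in this direction), and the log2 fold change was 1.88 ± 0.39 (SE, edgeR adjusted p = 0.0890). On Day 5 the levels were 212 and 449 against 313 and 443 CPM, and the fold change was -0.03 ± 0.47. Gm12239, an antisense transcript that overlaps the neuromedin U receptor gene Nmur2, was at 21.4, 18.3 and 0 CPM against 188, 207 and 264 on Day 1 (-3.56 ± 0.85, adjusted p = 0.218), on 0 to 2 UMIs per FGF1 mouse, and 86 genes (5.25%) did not overlap in that direction. Summed over the Day 1 nuclei of each group, Gm12239 was also lower after FGF1 in Agrp neurons (30.4 against 98.3 CPM) and astrocytes (14.8 against 96.6). The same held in oligodendrocytes (51.7 against 88.7), Glu5 neurons (23.6 against 38.7) and unmapped neurons (82.5 against 98.9).

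The other 8 of the 10 smallest Day 1 p-values had an adjusted p of 0.298 each by edgeR. Higher after FGF1 were Galntl6, a glycosyltransferase gene (log2 fold change 1.16), the potassium channel gene Kcnq5 (1.24), the metabotropic glutamate receptor gene Grm7 (1.32), the adhesion gene Cntnap5c (1.94) and Spock1, a secreted proteoglycan (1.43). Lower were Chic1 (-1.97), Pcsk2, the prohormone convertase that helps to cut peptide precursors (-1.37), and Map2k4, a kinase of stress signalling (-1.40). Pcsk2 stood at 353, 146 and 193 CPM in the FGF1 mice and 651, 537 and 764 CPM in the vehicle mice of Day 1. In Agrp neurons its log2 fold change was -1.15 ± 0.32 (adjusted p = 0.122), also not called.

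Day 5 and the mean of both days had other leading genes, none called by edgeR. Snrnp70, a splicing factor gene, was at 182 and 162 CPM in Day 5 FGF1 mice 37 and 45 and at 522 and 420 CPM in vehicle mice 28 and 38 (-1.51 ± 0.43, adjusted p = 1.00). Ptgds, an abundant secreted lipocalin of glia and meninges, was at 0 and 58.8 against 178 and 140 CPM (-1.83 ± 0.66, adjusted p = 1.00). Cdh8, a cadherin gene, was at 273 and 331 against 125 and 70.0 CPM (1.54 ± 0.53, adjusted p = 1.00). Groups of 2 fail to overlap often, here for 297 genes (18.1%) in the higher and 266 (16.2%) in the lower direction. The rest of the 10 smallest Day 5 p-values belonged to Lhfp (-1.73), Eif1 (-2.78), Pde1c (-1.12) and Osbpl6 (-1.18), all lower, and to Cntn5 (1.19), Kirrel3 (1.26) and Pde4b (1.13), all higher.

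Over both days Pde4b, whose product breaks down cyclic AMP, had the smallest p. It was at 503, 749 and 928 CPM in the Day 1 FGF1 mice against 411, 310 and 206, and at 941 and 441 against 345 and 210 on Day 5, without overlap on either day (1.11 ± 0.28, edgeR adjusted p = 0.526). Of the tested genes 7.7% did so in this direction on Day 1 and 18.1% on Day 5, and the share on both days was not counted. Nrg3, Sema6d, Zmym1 and Cdh8 also did not overlap on either day. Nnat, an imprinted gene of neuronal calcium handling, was at 225, 18.3 and 77.3 against 445, 578 and 646 CPM on Day 1 and at 0 and 154 against 439 and 303 on Day 5 (-1.94 ± 0.47, edgeR adjusted p = 0.526). Summed over the nuclei of each group, Nnat also had a lower level after FGF1 in other cell types, at 298 against 514 CPM on Day 1 and 90.7 against 446 on Day 5 in unmapped neurons, and at 506 against 1582 and 1067 against 2048 CPM in astrocytes. The part of free RNA in the GABA15 values was not tested. Nrg3 (0.73), Sema6d (1.29), Zmym1 (1.64) and Cdh8 (1.12) were higher and Ptgds (-1.36), Senp8 (-1.21), Snrnp70 (-0.88) and Adgra1 (-1.33) lower at the same adjusted p of 0.526. For the change of the effect from Day 1 to Day 5 the 10 smallest p-values were those of Mgat4c (1.58), Nova1 (2.53), Arhgap5 (1.81), Chic1 (2.22), Cntn5 (1.52) and Gpc5 (2.11), with a higher effect on Day 5, and of Nkain3 (-1.91), Enox1 (-1.50), Cul5 (-1.76) and Phf6 (-2.67), with a lower one (adjusted p = 0.998 each).

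No member of the functional gene lists was called in GABA15 on Day 1, where the median log2 fold change of all genes was -0.01. Of the 48 synaptic adhesion and guidance genes 43 were tested on Day 1 and 0 called, with 7 higher and 0 lower at an unadjusted 0.05 (median 0.27), where all genes tested had 4.46% higher and 3.73% lower. Among the 7 were Robo2, an axon guidance receptor gene (1.16 ± 0.44), and Cntnap4 (1.17 ± 0.54). Of 31 potassium channel genes 14 were tested and 0 called, with 4 higher and 2 lower at an unadjusted 0.05 (median -0.01). Of 28 ionotropic receptor genes 20 were tested and 0 called, with 1 higher and 3 lower, where Gria3 had the smallest p (-0.97 ± 0.35).

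Smaller groups had few members with enough UMIs. Of 24 hormone and peptide receptors 5 were tested on Day 1, and none was called or had an unadjusted p below 0.05, with Ntrk2 at -0.29 ± 0.33 and Calcr at -0.35 ± 0.46. Of 13 granins and processing enzymes 7 were tested, 0 were called and 1 (Pcsk2) was lower at an unadjusted 0.05. Of 5 genes of GABA synthesis and transport only Gad2 was tested, at -0.61 ± 0.41 on Day 1 and -0.92 ± 0.48 on Day 5. Its mean effect was -0.76 ± 0.32 (edgeR unadjusted p = 0.0232, adjusted 0.778). Gad1, which was under the filter on 1 to 15 UMIs per mouse and named after its values had been seen, went the other way. It was at 161, 128 and 193 CPM after FGF1 and 68.5, 62.0 and 58.7 CPM after vehicle on Day 1, and at 91.0 and 73.5 against 52.2 and 23.3 CPM on Day 5. The groups did not overlap on either day, which 7.7% of the tested genes showed in this direction on Day 1 and 18.1% on Day 5. Of 16 genes for FGF receptors and feedback only Fgfr2 was tested, at 289, 201 and 309 CPM after FGF1 and 634, 351 and 441 CPM after vehicle (-0.85 ± 0.36, edgeR unadjusted p = 0.0250, adjusted 0.508). The Fgfr2 entry of the annotation spans 2960900 bases and overlaps 36 genes on its strand and 33 on the other. The part of their RNA in these counts was not tested. None of 16 immediate early genes had enough UMIs, so acute activation could not be assessed at this depth.

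Stat3, which transmits leptin and cytokine signals to the nucleus, was the tested member among the transcription regulators of Agrp neurons. Its level on Day 1 was 257, 329 and 232 CPM in the FGF1 mice and 34.3, 114 and 117 CPM in the vehicle mice. The groups did not overlap, as for 7.7% of the tested genes in this direction (1.58 ± 0.53, edgeR adjusted p = 0.344). On Day 5 Stat3 was at 30.3 and 132 against 73.1 and 93.3 CPM. Socs3, a feedback inhibitor that Stat3 switches on, had 5, 2 and 0 UMIs in the Day 1 FGF1 mice and none in the vehicle mice. Pooled over each group, Socs3 after FGF1 stood at 2.54 times a floor of 3 vehicle UMIs, leaving out the counting error of the FGF1 UMIs. It was under the filter on low counts, and with no filter it was not called (edgeR unadjusted p = 0.00844, adjusted p = 0.903, DESeq2 adjusted p = 1.00). Over the Day 1 nuclei of all mice of a group, Socs3 was at 40.2 CPM after FGF1 and 0 after vehicle in GABA15, 42.5 and 0 in Agrp neurons, 138 and 1.02 in astrocytes, 13.2 and 0 in oligodendrocytes and 6.01 and 0.609 in unmapped neurons. The part of free or glial RNA in it was not tested.

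Serpina3n, a secreted protease inhibitor known as an acute-phase and reactive glial gene, was found in GABA15 on Day 1 after FGF1 and not after vehicle. On Day 1 the FGF1 mice 1, 2 and 3 had 15, 12 and 4 UMIs (161, 219 and 155 CPM) and the vehicle mice had 0 each. On Day 5 both FGF1 mice had 0 and both vehicle mice 1. The Day 1 level, 178 CPM over the group, was 11.2 times a floor of 3 UMIs over the vehicle group, leaving out the counting error of the FGF1 UMIs. Of 42 GABA15 nuclei of Day 1 FGF1 mice 20 held a UMI (47.6%, exact Clopper-Pearson 95% interval 32.0 to 63.6%, counting error only), against 0 of 41 vehicle nuclei, which allows a share of nuclei with a UMI of up to 7.32% by a floor of 3 counts (exact upper limit 8.60%). No nucleus held more than 2, so the UMIs were spread over many nuclei.

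The filter on low counts kept Serpina3n (chromosome 12, 104406729 to 104414329) out of the planned test. With no filter, over 16443 genes, edgeR called 7 genes in GABA15 on Day 1 (Serpina3n, Timp1, Gal, Nkain3 and Cntnap5a higher, Nnat and Gm12239 lower) and DESeq2 none of these 7. Of 10 fits that left out a mouse, edgeR called Nnat in 6, Nkain3 in 5, and Cntnap5a and Gm12239 in 4 each. For Serpina3n edgeR's adjusted p was 0.00160 and DESeq2's 0.794, and edgeR called it in 9 of 10 fits that left out a mouse, the exception being Day 1 vehicle mouse 2 (adjusted p = 0.0914). It belongs to a family of close copies, and how reads shared among them were counted is not known.

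Serpina3n was also found in astrocytes and other cell types. Among Day 1 FGF1 nuclei a Serpina3n UMI was found in 63.1% of astrocytes, 51.7% of Agrp neurons, 15.2% of oligodendrocytes, 9.93% of unmapped neurons and 7.93% of Glu5 neurons, at median depths of 2588, 1966, 2932, 2214 and 2360 UMIs compared with 3727 in GABA15. Thinned to 1500 UMIs the share was 29.3% in GABA15, 39.8% in Agrp neurons and 6.06% in unmapped neurons, so GABA15 stayed above unmapped neurons. Of the 24 Day 1 FGF1 GABA15 nuclei without a single astrocyte marker UMI, 11 (45.8%) held Serpina3n, as did 9.10% of such unmapped neurons. These nuclei had median depths of 3689.5 and 2138 UMIs and were not thinned. At such depths the lack of a marker UMI does not show that a nucleus was free of astrocyte RNA. Per 100 astrocyte marker UMIs there were 73.8 Serpina3n UMIs in GABA15, 586 in Agrp neurons and 21.8 in astrocytes themselves. The astrocyte markers were lower in the Day 1 FGF1 than in the Day 1 vehicle GABA15 nuclei, at 241 against 497 CPM. In astrocytes themselves these markers were also lower, at 3717 against 4988 CPM, while Serpina3n was at 811 against 25.4 CPM. The part of free or glial RNA in the Day 1 difference was not tested.

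Timp1, an inhibitor of matrix proteases and another gene known from reactive glia (chromosome X, 20870166 to 20874735), had 8, 4 and 8 UMIs in the Day 1 FGF1 mice and 0 in each vehicle mouse. Pooled over the group, this was 7.25 times the same floor, again leaving out the counting error of the FGF1 UMIs. A single nucleus of FGF1 mouse 3 held 7 of its 8 UMIs. Of the 42 nuclei, pooled over the FGF1 mice, 11 held a UMI (26.2%, exact 95% interval 13.9 to 42.0%, counting error only). The pooled share was 6.67% in unmapped neurons, 27.6% in Agrp neurons and 61.7% in astrocytes. At 1500 UMIs the shares were 9.76% in GABA15, 21.1% in Agrp neurons and 3.53% in unmapped neurons. With no filter edgeR gave an adjusted p of 0.0288 and DESeq2 1.00, and the call held in 4 of 10 fits that left out a mouse. On Day 5 a single Timp1 UMI was left in FGF1 mouse 45.

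Gal, the galanin gene, had most of its UMIs in few nuclei. There were 69, 15 and 1 UMIs in the Day 1 FGF1 mice against 1, 6 and 0 in the vehicle mice, and 5 and 36 against 39 and 3 on Day 5. A single nucleus of FGF1 mouse 1 held 38 of the 69. The log2 fold change was 3.44 ± 1.05 (edgeR adjusted p = 0.378). Without a filter edgeR called it (adjusted p = 2.73e-05, DESeq2 1.00), but not without Day 1 FGF1 mouse 1 (adjusted p = 0.976).

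**Figure D4:**
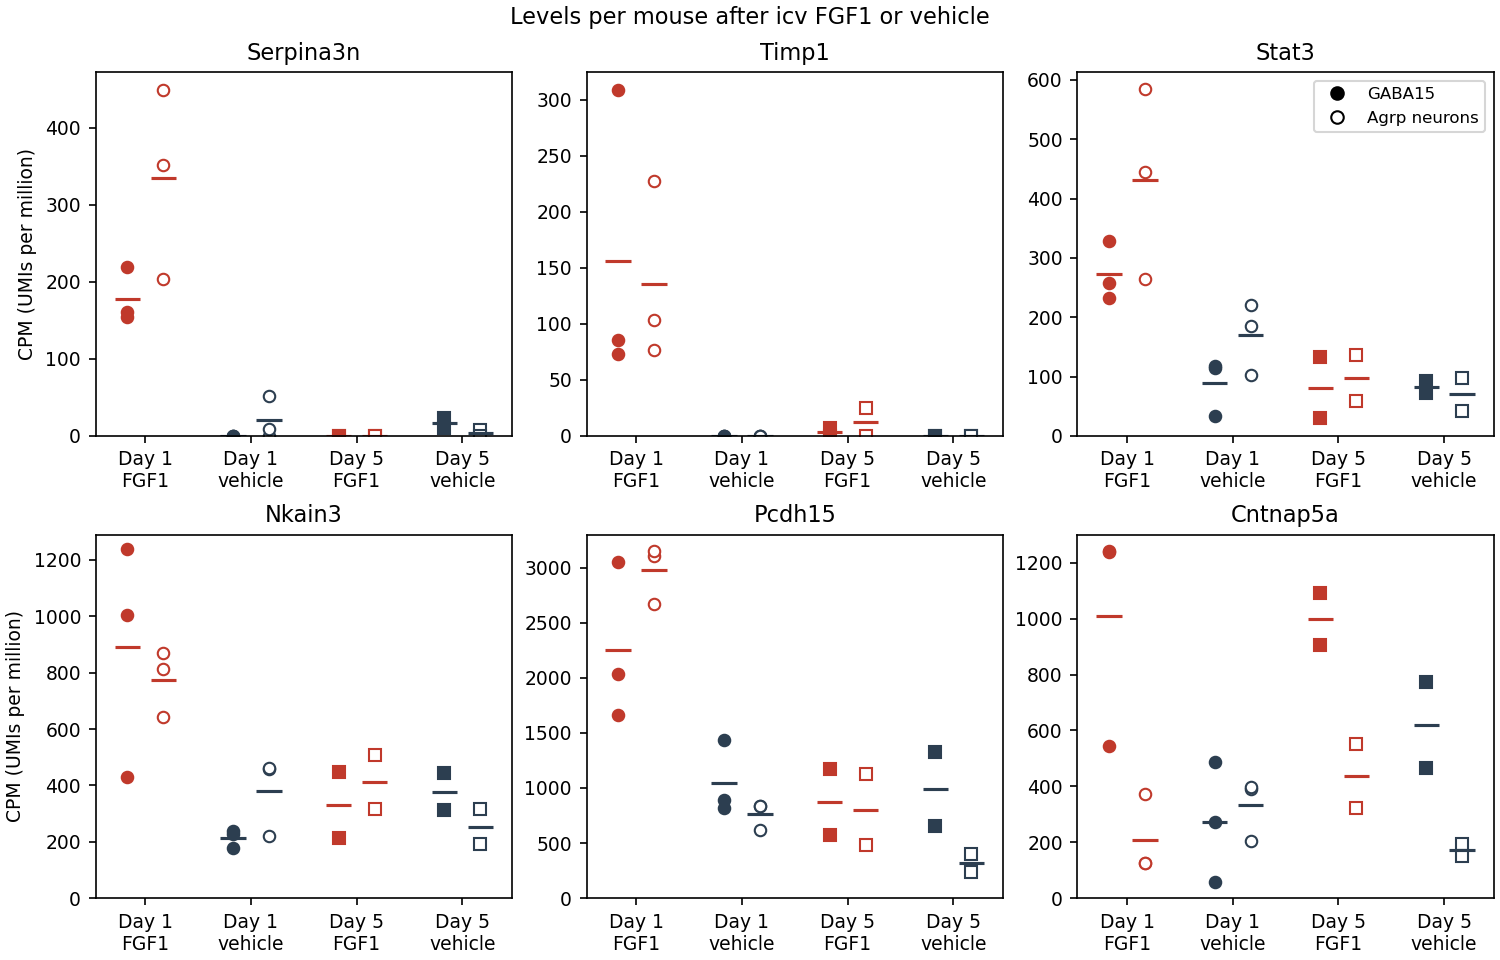
Level in CPM (vertical axis from 0) in each mouse by day and treatment for 6 genes, filled for GABA15 and open for Agrp neurons, with bars at group means of 3 mice on Day 1 and 2 on Day 5. Serpina3n stands at 155 to 219 CPM in the 3 Day 1 FGF1 mice and at 0 in the Day 1 vehicle mice in GABA15. For Cntnap5a GABA15 lies above Agrp neurons in the Day 1 FGF1 mice and in all Day 5 mice of both treatments.

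In Agrp neurons of the same mice some genes passed the FGF1 test on Day 1. There edgeR called 21 of 2874 genes on Day 1 (0.731%), 17 higher (0.592%) and 4 lower (0.139%), and DESeq2 14, and for the mean of both days edgeR called 1 (0.0348%). The Day 1 count rested on single mice. It was 3 without Day 1 FGF1 mouse 2 or vehicle mouse 1, 7 without FGF1 mouse 3, 8 without vehicle mouse 2 or 3, 13 without Day 5 vehicle mouse 28 and 14 to 25 without one of the others, and with the batch of the metadata as a covariate it was 8. Of the 21 Day 1 genes 17 could be tested in GABA15 and 0 were called. The 13 higher genes among them had a median log2 fold change of 1.72 in Agrp neurons, by which they were chosen, and of 0.95 in GABA15. Pcdh15, a protocadherin gene, was at 2034, 3049 and 1662 CPM in the GABA15 nuclei of FGF1 mice 1, 2 and 3 and at 891, 816 and 1439 CPM in those of the vehicle mice (1.11 ± 0.33, edgeR adjusted p = 0.298), beside 1.95 ± 0.32 in Agrp neurons (adjusted p = 0.00677). Kcnq5 was at 1.24 ± 0.35 beside 2.18 ± 0.39, and Kcnq3, its partner in the M-type potassium current that restrains firing, at 0.90 ± 0.36 beside 2.15 ± 0.41. Wbscr17 (1.19 beside 2.16), Sema6d (1.37 beside 2.03) and Ncam2 (0.95 beside 1.53) had a smaller value in GABA15 as well, and Sema6a, a semaphorin gene, was at -0.23 in GABA15 and -1.86 in Agrp neurons.

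Whether these effects differ between the labels was tested directly, with both labels of each mouse in 1 model and the mouse as a block. For none of the 21 genes did the difference pass (0 of 21 at an adjusted p of 0.05 by edgeR). For Kcnq5 it was -0.95 ± 0.37 (unadjusted p = 0.0128, adjusted p = 0.882). A smaller effect in GABA15 was thus not shown, and equal effects were not shown either.

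**Figure D5:**
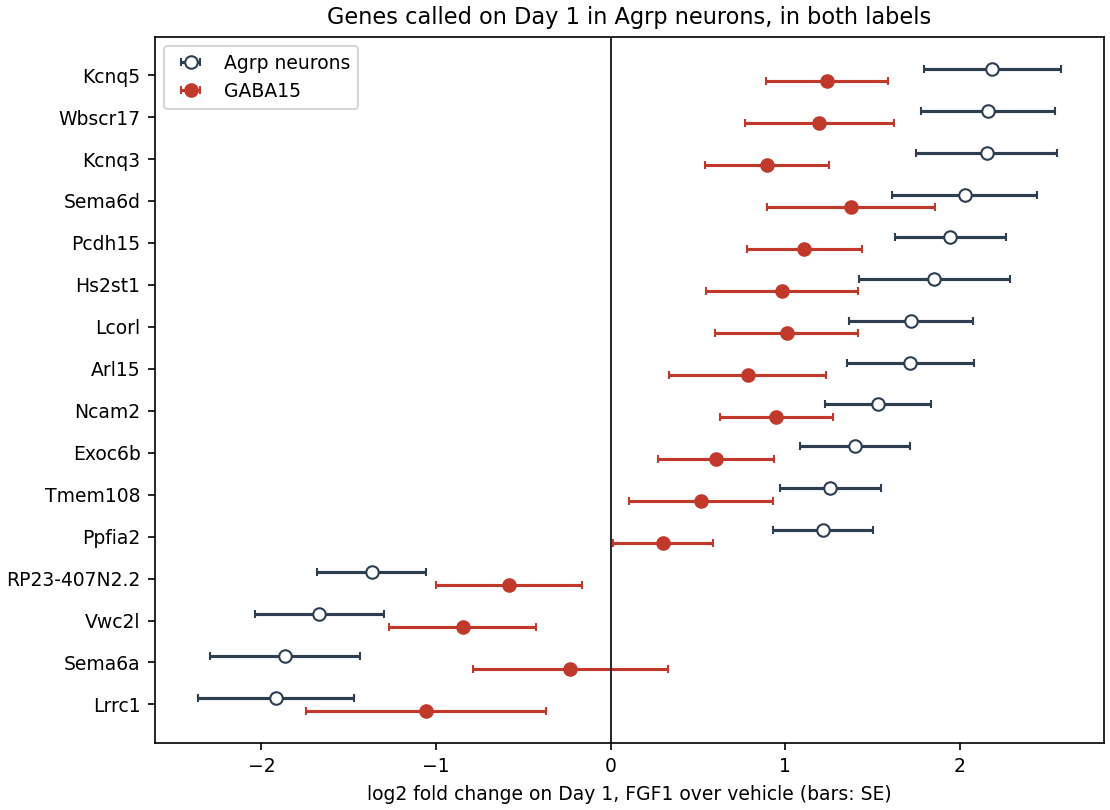
Day 1 log2 fold change of FGF1 over vehicle (horizontal axis, bars are SE) for 16 of the 17 genes called in Agrp neurons and also tested in GABA15, open for Agrp neurons and filled for GABA15. The genes were chosen by their values in Agrp neurons, where Pcdh15 stands at 1.95 beside 1.11 in GABA15.

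A single gene passed the test of the difference. Over all 2765 genes edgeR called 1 (0.0362%) on Day 1 and DESeq2 called none, with 122 genes (4.41%) below an unadjusted 0.05 in edgeR, and 0 (0%) were called on Day 5 (75, or 2.71%, below 0.05) or for the mean of both days (96, or 3.47%, below 0.05). The gene was Cntnap5a, a contactin-associated adhesion gene (chromosome 1, 115684756 to 116587323) with related copies in the family. In GABA15 its level was 546, 1242 and 1237 CPM in Day 1 FGF1 mice 1, 2 and 3 and 274, 485 and 58.7 CPM in vehicle mice 1, 2 and 3, from 51, 68 and 32 against 16, 47 and 2 UMIs. In Agrp neurons it had 24, 36 and 5 UMIs after FGF1 and 48, 45 and 8 after vehicle.

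GABA15 lay higher after FGF1 in all 3 mice and Agrp neurons lay on average lower. The log2 fold change of Cntnap5a was 1.60 ± 0.45 in GABA15 (adjusted p = 0.298) and -0.72 ± 0.40 in Agrp neurons (adjusted p = 0.563), neither of which was called, and the difference was 2.29 ± 0.39 (edgeR adjusted p = 0.00127). Without Day 1 vehicle mouse 1 this call was lost (edgeR adjusted p = 0.103), and DESeq2 did not make it (adjusted p = 0.0754). On Day 5 the difference was -0.64 ± 0.47 (edgeR adjusted p = 1.00). GABA15 then lay above Agrp neurons in each mouse of both treatments. The levels were 1092 and 904 against 551 and 322 CPM in FGF1 mice 37 and 45. They were 773 and 467 against 195 and 149 CPM in vehicle mice 28 and 38. The Day 1 vehicle means were 273 CPM in GABA15 and 332 CPM in Agrp neurons. Unmapped neurons had 1002 CPM of Cntnap5a after FGF1 and 897 CPM after vehicle on Day 1, and Glu5 neurons 1579 and 1123 CPM. The median confidence of the GABA15 nuclei was 0.655, 0.506 and 0.477 in Day 1 FGF1 mice 1, 2 and 3. It was 0.661 to 0.681 in the Day 1 vehicle mice. The part of free RNA, of this confidence and of the mix of first matches in the Cntnap5a difference was not tested.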

How the data were processed

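The authors aligned the nuclei with Cell Ranger 1.2 to GRCm38, as the submitters' notes and methods name them, and deposited raw UMI counts (20668 genes) and metadata with the labels. By the paper's methods the reference for nuclei included introns. The confidence is a fraction from 0 to 1 that the authors computed by Seurat label transfer. Doublets were not searched for, by the authors in nuclei or here. The members and gene lists were chosen with earlier results of these data known. Counts were summed per mouse over the nuclei of a label (at least 5 per mouse). edgeR 4.0.16 (filterByExpr, TMM, robust quasi-likelihood fit) was fitted to 4 groups of 10 mice, with Benjamini-Hochberg adjustment over all genes tested and a threshold of 0.05. It was tested on simulated data first. DESeq2 1.42.0, no filter, other size factors and left-out mice were alternatives. Shares and depths were tested by exact permutation over mice (scipy 1.17.1). For FGF1 against vehicle, mice were permuted within days and not within batches. Genes were named by rule: Agrp and Npy, the called genes or else the 10 smallest p-values of each contrast, the list members with the 2 smallest p-values, and the 10 highest and lowest ratios between labels present in every mouse. Genes of the lists that were named beyond these (such as Serpina3n, Timp1, Gal, Robo2, Lepr) were chosen after their values had been seen, and some genes, and a list whose names came from a figure of the study, are not reported here. Tests of genes, shares and depths used values per mouse, and each mouse was 1 library. Percents of nuclei with a UMI, their intervals and levels over a group pooled the nuclei of all its mice. These pooled values leave out the spread between mice.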

Additional observations from a re-analysis of the deposited data

Results flagged for a closer look

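The Day 1 effect of FGF1 on Cntnap5a differed between GABA15 and Agrp neurons by a test of the difference itself, 2.29 on the log2 scale (higher in GABA15, edgeR adjusted p = 0.00127, 0 calls by DESeq2). GABA15 mice ranged from 546 to 1242 CPM after FGF1 and from 58.7 to 485 CPM after vehicle. The call was lost without Day 1 vehicle mouse 1. The part of match confidence, of the mix of first matches and of free RNA in this difference was not tested.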

How the results depend on the processing

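Limits: 5 to 38 GABA15 nuclei per mouse, and 2 mice per group on Day 5. Counts of called genes moved as follows. For GABA15 on Day 1, none became 7 with no filter and 1 with at least 10 nuclei per mouse. For GABA15 at least 10 nuclei gave 4 on Day 5, 3 for the mean and 5 for the change between days, calls that rest on 1 mouse in each Day 5 group, which was assumed to vary like the Day 1 mice, and no filter gave 2 for the mean. For Agrp neurons on Day 1, 21 became 39 with no filter, 7 with a separate fit per day, 2 with the replicate block and 8 with batch as a covariate. For Agrp neurons on Day 5 no filter gave 3 and a separate fit 2. For their mean DESeq2 and no filter gave 2 each, and for the change between days no filter gave 2 and the batch covariate 1. For the difference between labels on Day 1, 1 became 0 with DESeq2, 2 with no filter and 3 with at least 10 nuclei. The causes were not tested. Leaving out each mouse in turn gave 0 to 5 calls for GABA15 on Day 1, 0 to 1 on Day 5, 0 to 5 for the mean and 0 to 1 for the change, 3 to 25, 0 to 2, 0 to 11 and 0 to 2 for Agrp neurons, and 0 to 4, 0 to 4 and 0 to 1 for the difference on Day 1, Day 5 and the mean. It gave -0.649 to -0.255 points for the GABA15 share, -4.72 to 1.503 for the share of both labels, 0.71 to 0.80 for the log2 depth ratio and -0.27 to 0.07 for UMIs per GABA15 nucleus. The share of both labels reversed to 1.503 without Day 5 FGF1 mouse 37 and to 0.104 without Day 5 vehicle mouse 38, and UMIs per GABA15 nucleus to 0.0737 without Day 5 FGF1 mouse 45. On Day 1 Agrp reversed to -0.416 and Npy to -0.394 without Day 1 FGF1 mouse 1, and Npy to -0.0475 without vehicle mouse 1, with the highest values 0.832 and 0.705 without vehicle mouse 2. The mean effect on Agrp reversed to 0.165 in nuclei first matched to n13.Agrp/Gm8773 (an alternative chosen after the data were seen, on 9 mice), to 0.05 and 0.0861 without Day 1 FGF1 mice 2 and 3 and to 0.204 without vehicle mouse 2, and was lowest, -0.424, without Day 1 FGF1 mouse 1. Of 49 gene results, 860 values kept direction and side, 11 became stronger, 11 weaker and 7 reversed.

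Day 1 mice share the numbers 1 to 3, but same-numbered GABA15 libraries correlated at -0.161, -0.223 and 0.145, so the numbers were not taken as pairs. The replicate block on Day 1, which joined same-numbered mice of different batches, left 0 calls in GABA15. FGF1 mouse 1 correlated best with vehicle mouse 2 (0.418), not with its own number. The batches of the metadata paired FGF1 mice 1, 2 and 3 with vehicle mice 3, 1 and 2, and these pairs correlated at -0.284, 0.0891 and -0.209.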

Other observations

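In Day 5 vehicle mouse 28 a single GABA15 nucleus held 129 UMIs of Hcrt, the orexin gene, out of 8319 UMIs. In the same mouse 68 of 208 astrocytes held Hcrt and an oligodendrocyte nucleus held 150 UMIs of it, and in Day 1 FGF1 mouse 1 a single Agrp neuron nucleus held 290. The nuclei first matched to n23.Sst/Unc13c (5 nuclei) had 1735 CPM of Sst and 5613 CPM of Agrp, and the 9 first matched to n12.Agrp/Sst had 571 and 5272 CPM, beside 325 and 6349 CPM in the 123 first matched to n13.Agrp/Gm8773.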
